A study of Mus musculus with 12 samples.

Results

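Mouse liver breaks purines down along 1 path from adenosine and guanine to allantoin, and 8 genes of that path are described here across liver tumours with and without Pck1. They are Ada, Pnp, Gda, Xdh, Uox, Urah, Urad and Allc, 8 of the 46095 genes in the count table and of the 26342 genes with any count. The set was chosen by its Uox level, which was lower in the Pck1-null tumours, so the difference between the genotypes entered the choice and is given for these genes as a description, without a p-value. All tumours were hepatocellular carcinomas of the liver that the carcinogen diethylnitrosamine (DEN) had induced in mice. The libraries labelled Pck1-null (KO, n = 7) were compared with the libraries labelled wild type (WT, n = 5) by RNA sequencing of total RNA. The labels name neither the targeted allele nor the cells in which Pck1 was removed, and give no strain, sex, age, batch or pairing. They do not say that each library came from a separate animal, so every p-value below measures the spread between these samples, which may be technical.

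Purine nucleosides are first stripped of their amino groups and sugars, then oxidised to urate by xanthine dehydrogenase, an enzyme that depends on a molybdenum cofactor. In mice urate does not accumulate, because hepatocyte peroxisomes hold urate oxidase, which turns it into an unstable product that is then processed to soluble allantoin. Humans carry only a non-functional copy of the urate oxidase gene, and urate is the end product there.

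Pck1, the gene for the cytosolic phosphoenolpyruvate carboxykinase of gluconeogenesis, checks the labels. Its level, as the count relative to the scaled library (CPM), was 111 at the lowest, 219 at the median and 1167 at the highest in KO libraries, against 1696, 5598, 5599, 1063 and 5822 CPM in WT replicates 1 to 5. The fitted log2 fold change of KO over WT was −3.28 ± 0.67 (SE), a 9.69-fold lower level, and it was −2.30 within the shallower and −4.88 within the deeper libraries described next. Below all 5 WT libraries were 6 of the 7 KO libraries, and the remaining one, KO replicate 3, exceeded WT replicate 4. Sequencing depth fell into 2 classes, a shallower one of 17462102 to 23663506 counts (4 KO and 3 WT libraries) and a deeper one of 43071365 to 46747125 counts (3 KO and 2 WT libraries). Xist, which is transcribed from the inactive X, was over 10 CPM in 5 KO libraries and 1 WT library and at or under 0.703 CPM in the other 6. Hepatocyte markers were present throughout, with a sum over 11 genes of 114874 to 234419 CPM in KO libraries and 98074 to 304608 CPM in WT libraries.

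The 250 bases before the RefSeq transcript starts of Uox, the gene that led to the choice, and of Urah and Urad, which act on its product, are shown (GRCm38.p6, 5′ to 3′ on the gene's strand). Capitals mark a match to the C/EBP-type motif TTGCNNAA on either strand. The Uox window is chr3:146596899-146597148 on the plus strand, the Urah window is chr7:140834888-140835137 on the plus strand and the Urad window is chr5:147322441-147322690 on the minus strand.
Uox: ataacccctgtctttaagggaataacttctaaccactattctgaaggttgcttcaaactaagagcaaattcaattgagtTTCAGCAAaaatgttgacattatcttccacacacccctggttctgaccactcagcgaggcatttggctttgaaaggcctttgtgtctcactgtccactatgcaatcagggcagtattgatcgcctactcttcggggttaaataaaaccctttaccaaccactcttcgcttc
Urah: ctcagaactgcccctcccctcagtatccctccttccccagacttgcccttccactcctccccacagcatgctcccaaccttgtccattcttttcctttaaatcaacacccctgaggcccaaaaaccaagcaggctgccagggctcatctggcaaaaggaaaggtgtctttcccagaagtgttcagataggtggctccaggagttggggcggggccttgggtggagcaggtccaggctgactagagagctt
Urad: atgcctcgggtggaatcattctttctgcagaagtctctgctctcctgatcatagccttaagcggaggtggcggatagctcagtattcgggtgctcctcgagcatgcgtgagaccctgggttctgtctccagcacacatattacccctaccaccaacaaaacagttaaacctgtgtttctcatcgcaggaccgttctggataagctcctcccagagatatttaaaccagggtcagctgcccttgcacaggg
The Uox window holds the C/EBP-type letters from 171 to 164 bases before the start, and this motif occurs in 9.56% of all 32851 RefSeq promoter windows of that length. The windows of Pnp and Gda hold it too, at 132 to 125 and at 234 to 227 bases before their starts. None of the windows held TATAAA (12.4% of all windows), the HNF1-type GTTAAT (6.43%), the HNF4-type CAAAGTCCA (0.384%), the FOXA-type TGTTTAC (3.17%) or the nuclear receptor type AGGTCA (14.0%). RefSeq promoters were found for 7 of the 8 genes, Xdh being without one in the table used. Urah has 1 more listed start, whose window held none of the 6 motifs either. A match is a description of letters and says nothing about binding.

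Of the 8 genes, 7 passed the filter on low counts and were fitted together with all 14666 genes tested, and Allc did not. The edgeR quasi-likelihood test called 0 of the 7 between KO and WT at an adjusted p under 0.05, against 0% of all genes tested. At an unadjusted p under 0.05 it called 1 of the 7, Uox, against 14.7% of all genes. DESeq2 called 1 (Uox) against 3.33% of all genes, limma voom with sample weights called 3 (Uox, Urah and Urad) against 14.6%, and limma voom without weights called 0 against 0.0341%. These counts are given beside the background only, since the choice rested on the same contrast. The median log2 fold change of the 7 was −0.18, and that of all genes tested was 0.03.

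The first enzymes of the path showed ranges that overlapped between the genotypes. Ada, adenosine deaminase, turns adenosine into inosine and lies at chr2:163726584-163750239 on the minus strand (GRCm38, GENCODE annotation). It was the least abundant of the 7 tested genes, with 10 to 147 counts a library, and its level was 1.05 CPM at the lowest, 1.62 at the median and 3.17 at the highest in KO, against 1.33, 2.17, 0.703, 0.525 and 1.56 CPM in WT replicates 1 to 5. The highest KO library was replicate 6 and the lowest WT library was replicate 4. The fitted log2 fold change was 0.41 ± 0.41 (SE), and the group means were 0.72 ± 0.52 log2 CPM in KO and 0.24 ± 0.79 in WT (SD, n = 7 and n = 5).

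Pnp, purine nucleoside phosphorylase, splits inosine and guanosine into hypoxanthine and guanine and lies at chr14:50931082-50965237 on the plus strand. Its level was 62.1 CPM at the lowest, 114 at the median and 169 at the highest in KO, against 116, 179, 152, 88.1 and 158 CPM in WT replicates 1 to 5. KO replicates 4 and 5 lay below all WT libraries and the other 5 KO libraries overlapped them. The group means were 6.85 ± 0.55 log2 CPM in KO and 7.07 ± 0.41 in WT (SD), and the fitted log2 fold change was −0.18 ± 0.27 (SE). Exons of Pnp share 356 bases with the opposite-strand gene Gm38316 and 718 bases with the same-strand gene Gm49342, and a closely related copy, Pnp2, was at 0.438 to 2.41 CPM in KO and 0.587 to 1.21 CPM in WT, so the Pnp value is uncertain by reads that these genes could share.

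Gda, guanine deaminase, turns guanine into xanthine and lies at chr19:21391307-21473445 on the minus strand. Its level was 10.6 CPM at the lowest, 31.0 at the median and 65.7 at the highest in KO, against 29.6, 22.6, 20.9, 36.2 and 20.5 CPM in WT replicates 1 to 5. The KO libraries were spread more widely than the WT libraries, with KO replicate 5 below all WT libraries. The group means were 4.95 ± 0.82 log2 CPM in KO and 4.66 ± 0.36 in WT (SD), with a fitted log2 fold change of 0.43 ± 0.35 (SE). Gda and Ada had a positive fold change and Pnp a negative one, each with KO and WT ranges that overlapped.

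Xdh, xanthine dehydrogenase, makes urate from hypoxanthine and xanthine and lies at chr17:73883895-73950196 on the minus strand. Its level was 113 CPM at the lowest, 134 at the median and 211 at the highest in KO, against 134, 192, 177, 86.1 and 182 CPM in WT replicates 1 to 5. The lowest of the 12 libraries was WT replicate 4 and the highest was KO replicate 2, and the groups overlapped between 113 and 192 CPM. The group means were 7.20 ± 0.35 log2 CPM in KO and 7.21 ± 0.48 in WT (SD), and the fitted log2 fold change was −0.03 ± 0.23 (SE).

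Uox, urate oxidase, converts urate in the peroxisome and lies at chr3:146570426-146632305 on the plus strand. Its level was 173 CPM at the lowest, 485 at the median and 875 at the highest in KO, against 1051, 1171, 1421, 1178 and 1410.4 CPM in WT replicates 1 to 5. All 7 KO libraries lay below all 5 WT libraries, as did 0.58% of all genes tested. The group means were 8.95 ± 0.77 log2 CPM in KO and 10.27 ± 0.19 in WT (SD), and the fitted log2 fold change was −1.19 ± 0.32 (SE), a 2.28-fold lower level. The highest library was 5.07 times the lowest among the KO libraries and 1.35 times among the WT libraries. KO replicate 5 held the lowest value, and the other 6 KO libraries lay between 452 and 875 CPM. In bulk tumour RNA, fewer cells of a type and less RNA per cell cannot be told apart, and this holds for every gene named here.

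Urah, 5-hydroxyisourate hydrolase, acts on the product of Uox and lies at chr7:140835018-140837966 on the plus strand. Its level was 42.8 CPM at the lowest, 67.1 at the median and 172 at the highest in KO, against 56.4, 178, 128, 105 and 160.4 CPM in WT replicates 1 to 5. KO replicate 6 stood far above the other 6 KO libraries, which lay between 42.8 and 70.4 CPM, and 2 KO libraries lay below all WT libraries. The group means were 6.14 ± 0.62 log2 CPM in KO and 6.87 ± 0.66 in WT (SD), with a fitted log2 fold change of −0.70 ± 0.35 (SE), a 1.62-fold lower level. Exons of Urah share 177 bases with the opposite-strand gene C330022C24Rik, and since no source names the strand setting of the counting, its counts could include reads of that gene.

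Urad decarboxylates the product of Urah to allantoin and lies at chr5:147314984-147322440 on the minus strand. Its level was 1.67 CPM at the lowest, 16.7 at the median and 50.3 at the highest in KO, against 17.4, 67.5, 55.2, 26.2 and 54.9 CPM in WT replicates 1 to 5. The KO libraries spanned a 30.2-fold range and the WT libraries a 3.87-fold range, and 4 of the 7 KO libraries lay below all WT libraries. The group means were 3.55 ± 1.55 log2 CPM in KO and 5.30 ± 0.83 in WT (SD), with a fitted log2 fold change of −1.33 ± 0.62 (SE), a 2.52-fold lower level. Its mean difference was the largest of the 7, and its libraries also varied most.

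Allc encodes allantoicase, which acts on allantoate further down the path in animals that have that activity, and lies at chr12:28553755-28582523 on the minus strand. It had 1 count in KO replicate 3 and 0 counts in the other 11 libraries. A count of 0 allows up to 3 counts, which is 0.0536 to 0.162 CPM over the KO libraries and 0.0684 to 0.211 CPM over the WT libraries, and this covers counting error only. No fold is given, since both groups were at or under that limit.

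**Figure D1:**
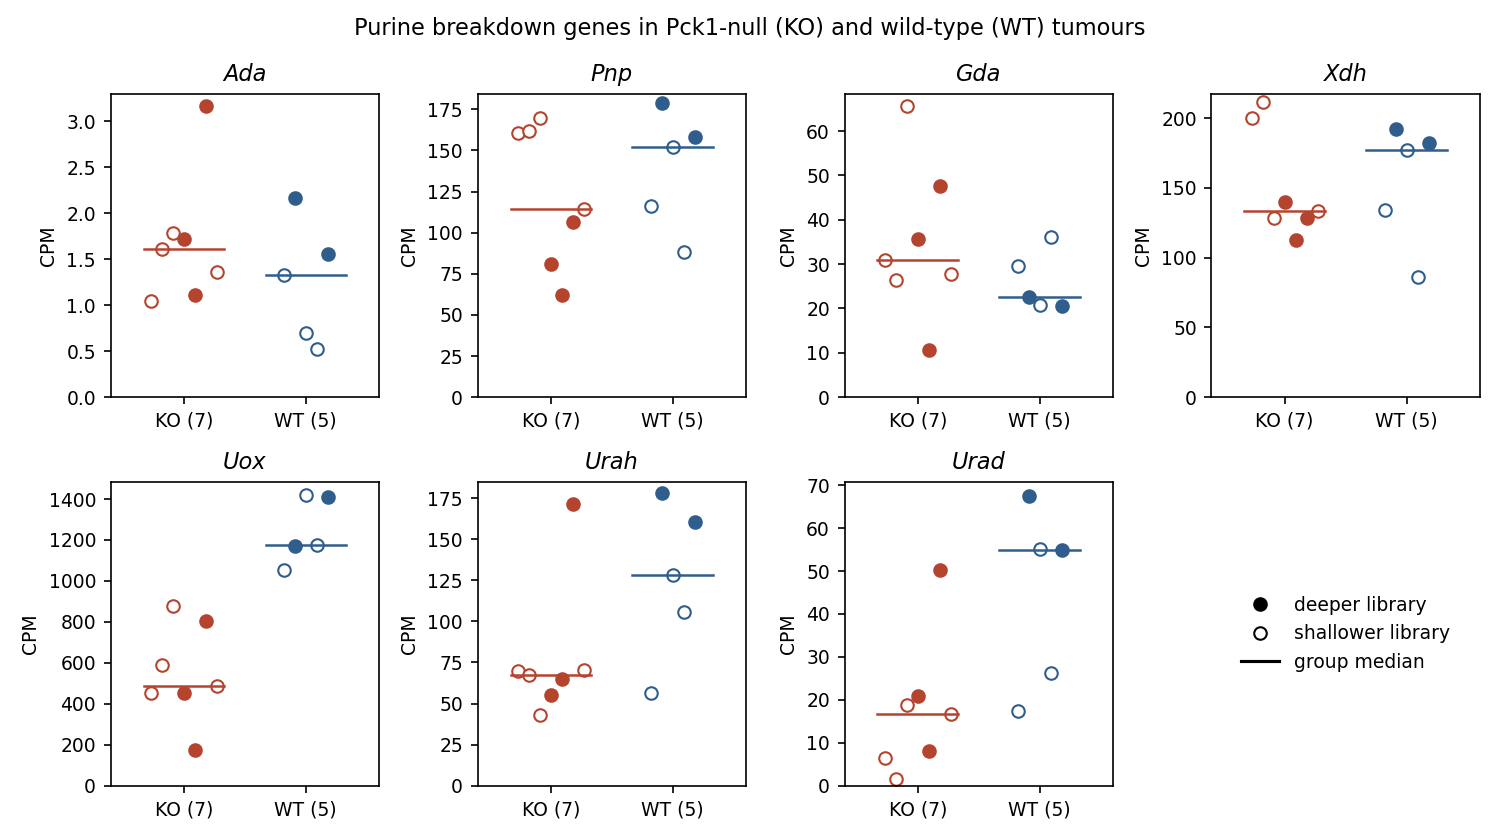
Level of each of the 7 tested genes in CPM (vertical axis, from 0) for KO (7 libraries, left) and WT (5 libraries, right), 1 point per library, filled for deeper and open for shallower libraries, with the group median as a line. For Uox the KO points (173 to 875 CPM) all sit under the WT points (1051 to 1421 CPM), and for the other 6 genes the points of the groups overlap.

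Put on a scale per length of the principal transcript, which allows genes to be set side by side, Uox had the highest mean of the path in both genotypes. It had 200 ± 86.6 CPM per kb in KO and 455 ± 59.4 CPM per kb in WT (SD), and Urah came next with 87.0 ± 48.0 CPM per kb in KO and 141 ± 53.8 CPM per kb in WT. Urad had 22.9 ± 21.0 CPM per kb in KO, below Pnp (41.6 ± 14.5) and Xdh (32.8 ± 8.38), and 57.7 ± 27.8 CPM per kb in WT, above Pnp (47.1 ± 12.3) and Xdh (33.5 ± 9.56). These neighbours lay within the spread of Urad in each genotype, and with all annotated exons as the length Urad was above Xdh in KO too. In 1 library, KO replicate 5, Urah (73.2 CPM per kb) was above Uox (63.0 CPM per kb). Gda had 6.44 ± 3.23 CPM per kb in KO and 4.78 ± 1.25 in WT, Ada had 0.998 ± 0.423 in KO and 0.745 ± 0.394 in WT, and Allc was at or near 0 in both.

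**Figure D2:**
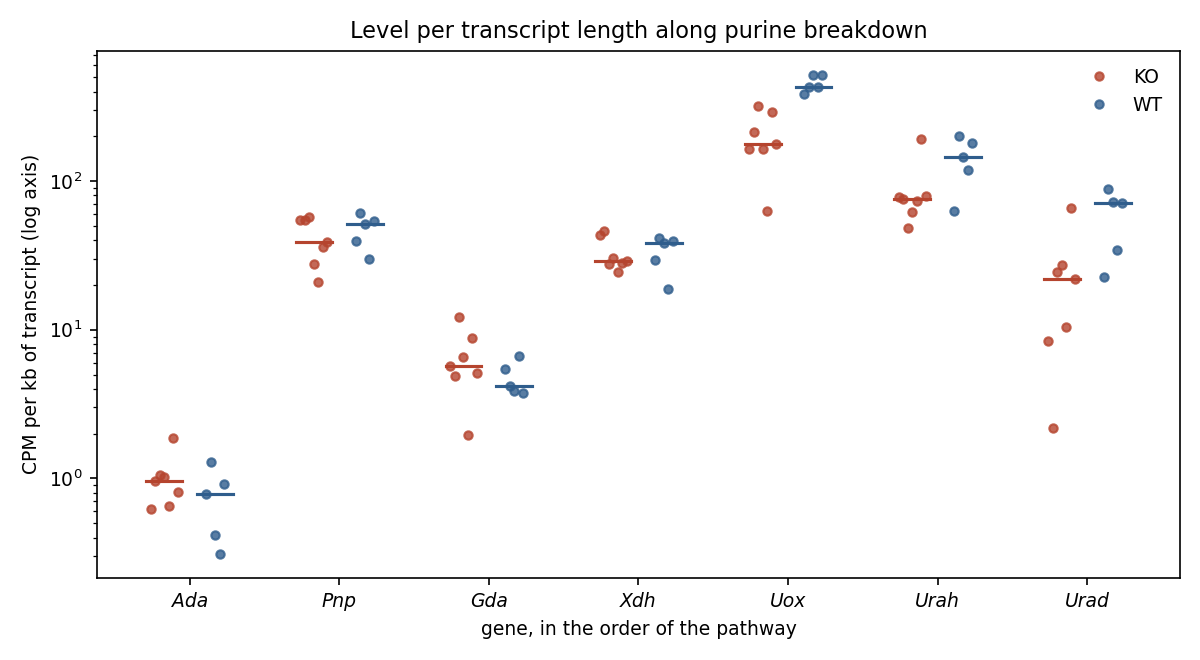
Level per kb of principal transcript (CPM per kb, log axis) of the 7 tested genes in the order of the path, with KO libraries left and WT libraries right at each gene, 1 point per library and the group median as a line. Uox has the highest mean in both genotypes, with of 200 CPM per kb in KO and 455 CPM per kb in WT, and Ada is lowest.

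The ratio of Uox to Xdh counts within a library does not depend on the scaling of the library. Since Uox led to the choice and Xdh had a fold change near 0, a lower ratio in KO follows from the choice and is given as a description. The ratio was 1.53 at the lowest, 3.23 at the median and 6.83 at the highest in KO, against 7.82, 6.10, 8.03, 13.7 and 7.75 in WT replicates 1 to 5. KO replicates 3 and 6 were above WT replicate 2, and 5 KO libraries were below every WT library. The genes after Uox were set against it in the same way. The median ratio of Urah to Uox was 0.145 in KO and 0.0904 in WT, and that of Urad to Uox was 0.0345 in KO and 0.0388 in WT.

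The 3 genes after urate kept the sign of their difference within both depth classes, while Xdh and Pnp did not. For Uox this outcome was fixed in advance, since every KO library lay below every WT library. In the shallower libraries the log2 fold changes were −1.02 ± 0.30 for Uox, −0.64 ± 0.30 for Urah and −1.60 ± 0.75 for Urad (SE, 4 KO and 3 WT). In the deeper libraries they were −1.44 ± 0.65 for Uox, −0.81 ± 0.54 for Urah and −1.22 ± 0.73 for Urad (SE, 3 KO and 2 WT). Uox of the shallower libraries was 452 to 875 CPM in KO and 1051 to 1421 CPM in WT, and Uox of the deeper libraries was 173 to 803 CPM in KO and 1171 to 1410.4 CPM in WT. Gda (0.38 and 0.53) and Ada (0.76 and 0.09) had a positive fold change in both classes, the shallower value being given before the deeper one.

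For Xdh the log2 fold change was 0.34 ± 0.30 among shallower libraries and −0.56 ± 0.20 among deeper ones (SE). For Pnp it was 0.35 ± 0.24 among shallower libraries and −1.02 ± 0.28 among deeper ones. Pnp was 114 to 169 CPM in shallower KO libraries and 88.1 to 152 CPM in shallower WT libraries, where the groups overlapped. It was 62.1 to 107 CPM in deeper KO libraries and 158 to 179 CPM in deeper WT libraries. In that class, with only 3 KO and 2 WT libraries, Uox, Urad and Xdh were without overlap too. The share of all genes without overlap there was not counted. Within KO the deeper libraries were exactly those of a single title number range, and the shallower class joined the other ranges. The difference between the classes was tested as an interaction with edgeR's quasi-likelihood test over all genes. It was −1.37 ± 0.37 for Pnp (SE, unadjusted p = 0.00401, adjusted p = 0.514) and −0.90 ± 0.41 for Xdh (adjusted p = 0.523), and no gene of the 7 was called. At an unadjusted p under 0.05 the test called 1 of the 7, Pnp, against 9.55% of all genes, and at the adjusted threshold 0% of all genes. With DESeq2, which called 0.545% of all genes, the adjusted p of Pnp was 0.0870.

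The depth class itself, tested beside genotype with edgeR's quasi-likelihood test, gave 0 calls among the 7 at the adjusted threshold, against 0.695% of all genes. The log2 differences of deeper over shallower libraries were 1.12 ± 0.56 for Urad (adjusted p = 0.380), 0.73 ± 0.35 for Ada (adjusted p = 0.364) and 0.71 ± 0.29 for Urah (adjusted p = 0.314), and those of the other 4 lay between −0.33 and −0.02. At an unadjusted p under 0.05 it called Urah alone, 1 of 7, against 14.4% of all genes. Without KO replicate 6 the difference was 0.37 for Urah (unadjusted p = 0.177 in edgeR), 0.65 for Urad and 0.53 for Ada. The Urah call was also lost in edgeR without KO replicate 3 (unadjusted p = 0.0620), WT replicate 1 (0.0571) or WT replicate 2 (0.0684).

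**Figure D3:**
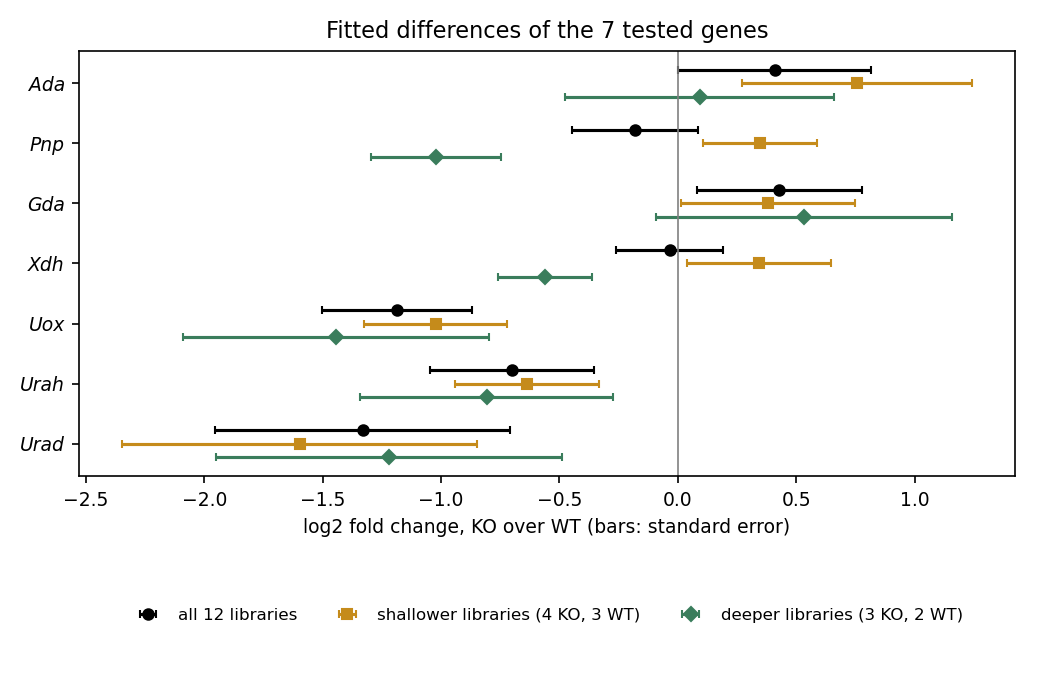
Fitted log2 fold change of KO over WT (horizontal axis, bars show the standard error) for the 7 tested genes, from all 12 libraries, from the shallower and from the deeper libraries. Uox, Urah and Urad lie left of 0 in all 3 fits, and Xdh and Pnp lie right of 0 in the shallower libraries (0.34 and 0.35) and left of it in the deeper ones (−0.56 and −1.02).

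The Xist classes were also uneven over the genotypes, with 5 KO and 1 WT library in the high class. Uox in the Xist-high class was 173 to 875 CPM in KO and 1178 CPM in the 1 WT library, and in the Xist-low class 453 to 485 CPM in 2 KO libraries and 1051 to 1421 CPM in 4 WT libraries. With the Xist class as a covariate the log2 fold change was −1.28 for Uox, −0.79 for Urah and −1.10 for Urad, each with the sign it had without the covariate. For Uox that sign followed from the KO libraries lying below WT in both classes. That of Xdh was 0.10, on the other side of 0, and that of Pnp was −0.20.

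Single libraries stood out for several genes of the path at once. KO replicate 5 had the lowest Uox, Pnp and Gda of all 12 libraries and the lowest Xdh of the KO libraries. The same library held the highest sum of 5 cholangiocyte markers (4312 CPM) and the lowest sum of 9 pericentral hepatocyte markers (89.4 CPM). KO replicate 6 had the highest Urah, Urad and Ada of the KO libraries, and the highest periportal hepatocyte (14074 CPM) and macrophage and Kupffer cell (1830.2 CPM) sums among them. KO replicate 3 had the highest Uox, Pnp and Gda of the KO libraries and the lowest Urah, and the highest neutrophil sum (1601 CPM). The part of these cell types in the levels of the path was not tested.

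For each of 11 cell type marker lists the log2 summed CPM was set against genotype in an exact permutation test (two-sided, 792 regroupings of the libraries). After Benjamini-Hochberg adjustment none passed. The 8 periportal hepatocyte markers, among them the urea cycle genes Ass1, Cps1 and Arg1, were all lower in the fit. Their sum was 252 to 14074 CPM in KO libraries and 3356 to 17347 CPM in WT libraries, and 5 of 7 KO libraries were below the lowest WT library (log2 difference −2.18, exact permutation p = 0.0379, adjusted p = 0.208). The 7 endothelial markers were also all lower in the fit, with a sum of 129 to 524 CPM in KO libraries and 333 to 502 CPM in WT libraries (log2 difference −0.87, exact permutation p = 0.0316, adjusted p = 0.208). The 7 macrophage and Kupffer cell markers were mixed, 2 higher and 5 lower in the fit, with log2 fold changes from −2.47 to 2.02. Their sum was 151 to 1830.2 CPM in KO and 378 to 1124 CPM in WT, a log2 difference of −1.09 (exact permutation p = 0.0720, adjusted p = 0.264). Within the shallower and the deeper class the log2 differences were −2.58 and −1.75 for the periportal list, −0.96 and −0.77 for the endothelial list and −1.35 and −0.79 for the macrophage and Kupffer cell list. Without KO replicate 6 all 3 of these lists passed, at adjusted p = 0.0397 for the periportal and 0.0238 for both other lists by the same exact permutation test.

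The other 8 lists had adjusted p-values from 0.344 to 0.928 in that exact permutation test, with log2 differences of −0.03 for hepatocytes, 0.71 for pericentral hepatocytes, 0.43 for T and NK cells, −0.64 for B cells, 1.71 for neutrophils, 0.16 for erythroid cells, −0.63 for stellate cells and fibroblasts and −0.22 for cholangiocytes. All 8 neutrophil markers had a positive fold change in the fit (median 3.65). All 8 passed the unadjusted threshold of edgeR (7.25% of all genes were higher there) and 8 were called by DESeq2 (3.33% of all genes). The adjusted test of edgeR called 0 of them (0% of all genes). Limma voom called 0 with sample weights (14.6% of all genes) and 0 without weights (0.0341%). The neutrophil sum was 1601, 384 and 242 CPM in KO replicates 3, 6 and 4. In the other KO libraries it was 26.1 to 39.1 CPM, within the WT range of 20.8 to 46.7 CPM. All 9 pericentral markers had a positive fold change too (median 2.18), while the log2 difference of their sum was 2.91 among shallower and −2.31 among deeper libraries and 0.21 to 1.66 with each library left out. No marker of the 11 lists was without a count in all libraries. Of the 11 hepatocyte markers 2 were higher and 9 lower in the fit. Whether hepatocyte content or the periportal difference has a part in the Uox level was not tested. In KO replicates 1 to 7 the periportal sum was 252, 693, 1487, 3200.5, 2837, 14074 and 4614 CPM, and Uox was 452, 589, 875, 453, 173, 803 and 485 CPM. The highest Uox among them was in replicate 3 (periportal sum 1487 CPM) and the lowest in replicate 5 (2837 CPM). The highest periportal sum was in replicate 6 (Uox 803 CPM) and the lowest in replicate 1 (Uox 452 CPM).

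**Figure D4:**
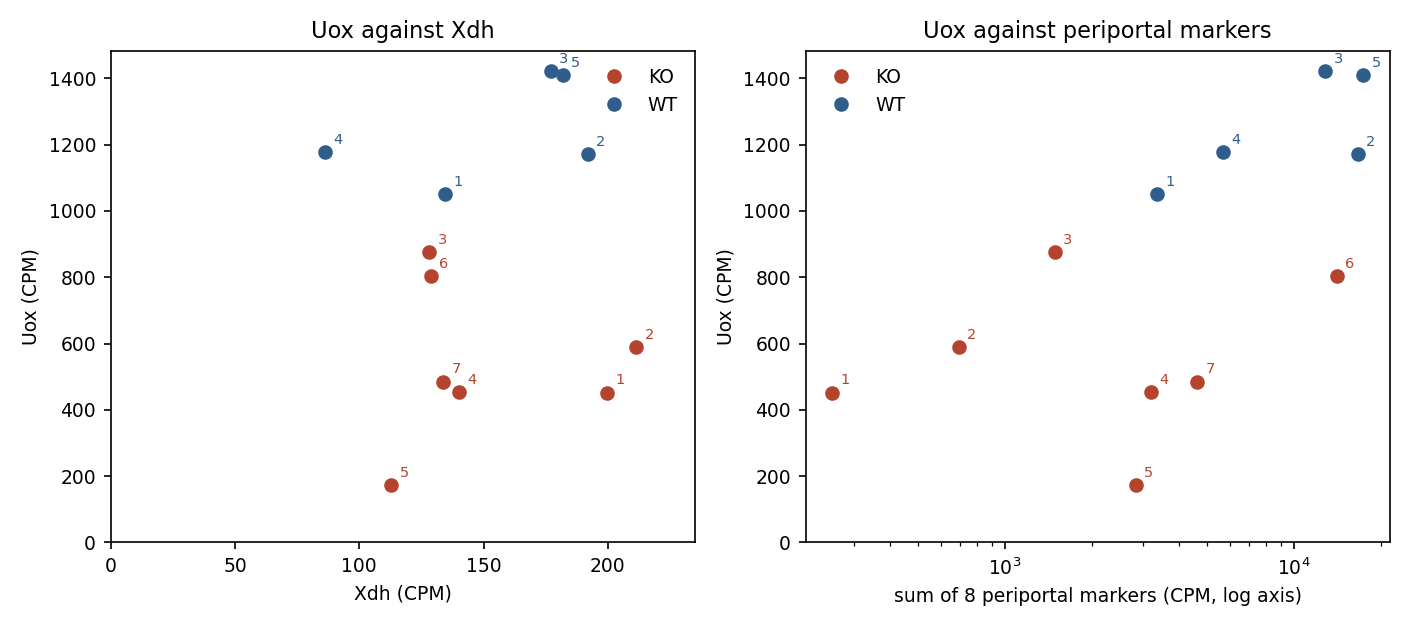
Uox (CPM, vertical axis) against Xdh (CPM, left panel) and against the sum of 8 periportal hepatocyte markers (CPM, log axis, right panel), 1 point per library with its replicate number, KO and WT in separate colours. In the left panel the groups separate by Uox (KO at most 875 CPM, WT at least 1051 CPM) and overlap in Xdh, and in the right panel KO libraries reach from 252 to 14074 CPM of periportal markers.

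How the 7 genes varied among libraries of 1 genotype was compared over the 12 libraries after the genotype mean was taken out, for 21 pairs with 100000 permutations within genotype. No pair passed after Benjamini-Hochberg adjustment, and 17 of the 21 correlations were positive. Xdh and Pnp had the lowest p, with Pearson's r = 0.754 (permutation p = 0.00391, adjusted p = 0.0821) and Spearman's rho = 0.629 (permutation p = 0.0438, adjusted p = 0.690). Without the 2 libraries farthest from the median of Xdh, r was 0.667, and over all 12 libraries with the depth class taken out too it was 0.657. Without KO replicate 3 the Xdh and Pnp pair passed, with r = 0.895 and a permutation adjusted p of 0.00945.

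Uox and Gda had r = 0.825 (permutation p = 0.0146, adjusted p = 0.154) and rho = 0.280 (permutation p = 0.406, adjusted p = 0.690), and r dropped to 0.167 without KO replicates 3 and 5, so the relation rests on those libraries. The same holds for Uox and Pnp, with r = 0.655 (permutation p = 0.0335, adjusted p = 0.234), rho = 0.552 (permutation p = 0.0977, adjusted p = 0.690) and r = 0.168 without the same 2 libraries. Over all 12 libraries with the depth class taken out too, r was 0.845 for Uox and Gda and 0.684 for Uox and Pnp. None of the relations among the urate steps passed. The r was 0.214 for Uox and Urah (permutation p = 0.454, rho = 0.315, permutation p = 0.319), 0.323 for Uox and Urad (permutation p = 0.418, rho = 0.322, permutation p = 0.351) and 0.511 for Urah and Urad (permutation p = 0.110, rho = 0.385, permutation p = 0.215), with adjusted p-values of 0.492 to 0.690. Without KO replicates 3 and 5, the libraries farthest from the Uox median, r was 0.778 for Uox and Urah and 0.361 for Uox and Urad, and for Urah and Urad it was 0.550 without KO replicate 2 and WT replicate 1. Over all 12 libraries with the depth class taken out, r was 0.401 for Uox and Urah, 0.598 for Uox and Urad and 0.343 for Urah and Urad.

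The genes whose levels went most closely with each of the 7 were ranked by Spearman's rho over the 12 libraries, again with the genotype mean taken out, among 8804 genes with a mean log2 CPM over 3. As the highest of many, these values carry no test. For Uox they were Spns2 (rho = 0.874), Orm1 (0.867) and Hopx (0.860). For Urah they were 1810043H04Rik and Ndufa13 (both 0.965) and D10Jhu81e (0.958), and for Urad Tspan7 (0.944), C1qtnf1 (0.930) and Mylip (0.916). For Pnp they were Slc29a1 and Zfand2b (both 0.965) and C1rl (0.944), for Xdh Ifi47 (0.937), Alg3 (0.902) and Slc30a6 (0.895), for Gda Gtf2f2 (0.902), Arhgap19 (0.881) and Rrs1 (0.874), and for Ada Wdfy4 (0.930), Capzb (0.888) and Plpp1 (0.881). Slc29a1, the equilibrative nucleoside transporter, is the 1 gene among them that also belongs to a purine list below.

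Genes around the path were counted in 6 lists, and edgeR's adjusted test called none of them in either direction. De novo purine synthesis had 13 of 13 genes tested, 6 higher and 7 lower, with a median log2 fold change of −0.13 against 0.03 for all genes. Paics, Gart and Atic, which assemble the purine ring, had −0.14 ± 0.23, −0.13 ± 0.14 and 0.01 ± 0.10 (SE), and Adss, which leads to AMP, had 0.23 ± 0.19. At an unadjusted p under 0.05, 0 were higher and 1 was lower, Pfas (−0.46 ± 0.20), a gene named after its value was seen. The background at that threshold was 7.25% higher and 7.44% lower.

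Salvage had 19 of 22 genes tested, 9 higher and 10 lower, with a median of −0.01. Hprt, which returns hypoxanthine and guanine to nucleotides, had 0.28 ± 0.22, Aprt, which does so for adenine, 0.54 ± 0.18, Adk, the adenosine kinase, −0.40 ± 0.19 and Nt5e, the cell surface nucleotidase, 0.76 ± 0.73 (log2 fold change ± SE). Aprt, with an unadjusted p of 0.00925 and an adjusted p of 0.231 in edgeR, was the 1 gene higher at the unadjusted threshold and none was lower. Aprt was 51.8 to 98.8 CPM in KO and 41.9 to 61.9 CPM in WT, so the groups overlapped.

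Transporters had 13 of 19 genes tested, 6 higher and 7 lower, with a median of −0.01 and none past the unadjusted threshold. Abcg2 and Abcc4, which export urate, had 0.01 ± 0.29 and 0.74 ± 0.52, and the nucleoside and nucleobase carriers Slc29a1 and Slc43a3 had −0.20 ± 0.32 and −0.26 ± 0.36 (log2 fold change ± SE). Slc29a1 was at 0.36 within the shallower and −1.10 within the deeper libraries. Extracellular adenosine genes had 8 of 11 tested, 3 higher and 5 lower, with a median of −0.20 and none past the unadjusted threshold. Entpd5, Entpd8, Enpp1 and Enpp3, which split nucleotides, had 0.09 ± 0.36, −0.34 ± 0.37, 0.39 ± 0.27 and −0.38 ± 0.42.

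The molybdenum cofactor list, of cofactor synthesis genes and enzymes other than Xdh that use the cofactor, had 10 of 12 genes tested. Of these 4 were higher and 6 lower, with a median of −0.14. Mocs1, an enzyme of cofactor synthesis, had 0.02 ± 0.30, the aldehyde oxidase Aox3 had 0.76 ± 0.68 and the amidoxime reductases Marc1 and Marc2 had −0.82 ± 0.33 and 0.04 ± 0.28 (log2 fold change ± SE). The median was 0.30 within the shallower and −0.86 within the deeper libraries, and Mocs1 (0.58 and −0.85), Aox3 (1.42 and −1.05) and Marc2 (0.56 and −0.81) changed sign between these classes. In the genotype by depth interaction 6 of the 10 genes passed an unadjusted p under 0.05, with a median of −1.40, against 9.55% of all genes, and 0 passed the adjusted threshold of edgeR. Between KO and WT, Marc1 was the 1 gene past the unadjusted threshold (unadjusted p = 0.0259, adjusted p = 0.288 in edgeR). Of all genes 7.44% were lower at that threshold. Aox3 was 8.62 to 464 CPM in KO and 58.5 to 118 CPM in WT, the KO libraries being on both sides of the WT range.

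The peroxisomal list holds oxidases that share Uox's compartment, catalase, which removes the hydrogen peroxide they form, and Agxt, which is not an oxidase. Of its 11 genes 10 were tested, 2 higher and 8 lower, with a median log2 fold change of −0.40 against 0.03 for all genes. At an unadjusted p under 0.05, 4 were lower and 0 higher, against 7.44% lower and 7.25% higher of all genes. Cat was 472 to 1322 CPM in KO and 1121 to 2144 CPM in WT (−0.85 ± 0.27), and Agxt, which detoxifies glyoxylate, was 42.7 to 486 CPM in KO and 79.4 to 1001 CPM in WT (−1.48 ± 0.62). The other 2, Ddo and Paox, which oxidise D-aspartate and acetylated polyamines, are named after their values were seen. Ddo was 7.22 to 15.3 CPM in KO and 20.1 to 26.0 CPM in WT, without overlap as for 0.58% of all genes (−1.16 ± 0.20, adjusted p = 0.144 in edgeR), and Paox had −0.67 ± 0.22. Acox2, which oxidises the side chain of bile acid precursors, had 0.06 ± 0.25, with 0.60 within the shallower and −0.60 within the deeper libraries.

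By other tools, DESeq2 called 1 gene of the peroxisomal list and 0 of the other 5, against 3.33% of all genes, and limma voom without sample weights likewise 1 and 0, against 0.0341%. Limma voom with sample weights called 4 peroxisomal genes, 2 of de novo synthesis, 2 of the molybdenum cofactor list, 1 of salvage, 1 transporter and 0 of extracellular adenosine, against 14.6% of all genes.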

How the data were processed

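The authors deposited 1 table of raw read counts per gene for all 12 libraries, as whole numbers that were not normalized, and every value column was mapped to a sample (0 left out). Reads were aligned with HISAT2 to mm10, per the submitters' processing notes, and RNA was extracted with Trizol and accepted at a high integrity number, per the labels' protocols. The program that counted reads, its strand setting and its annotation are not given in the sources used. Genotype labels formed the groups, and replicates were numbered in accession order. KO replicate 7, whose title begins with KP, stayed in KO because of its genotype label. No 2 libraries of a group agreed within sampling noise (smallest chi-square per degree of freedom 71.0).

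Genes were kept by filterByExpr (minimum count 10, minimum total 15), which left 14666 genes with 99.9% of the counts. Counts were fitted in R 4.3.3 with edgeR 4.0.16 (TMM scaling, robust quasi-likelihood test, Benjamini-Hochberg adjustment at 0.05, common biological coefficient of variation 0.492). Standard errors were the log2 fold change divided by the root of its F statistic. CPM used the TMM-scaled library size, and log2 CPM a prior count of 2. Gene positions and lengths came from GENCODE vM21 (GRCm38), and promoters from RefSeq. Motif shares count all RefSeq windows. Alternatives were RLE and upper quartile scaling, DESeq2 1.42.0, limma 3.58.1 with voom, other filters and covariates, depth classes and each library left out. The fits were also run on simulated data, and the share of changes recovered is not given here. The members, lists and tests were chosen with earlier results of these data known. The text names the 8 members, Pck1, the 4 most abundant tested genes of each list, any gene past the threshold and the 3 genes most like each member. Pair correlations without the depth class or 1 library, and levels per length over all exons, were added after seeing the data. The value of 1 list member that enters the counts is not reported here.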

Additional observations from a re-analysis of the deposited data

Results flagged for a closer look

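In 86 groups of 5 or 7 libraries, 9 held a library far from the others by Dixon's test, and chance gives about 1 in 20 groups. Among the purine breakdown genes, Uox was lowest in KO replicate 5 at 173 CPM, with the other KO libraries at 452 to 875 CPM. Urah was highest in KO replicate 6 at 172 CPM, with the others at 42.8 to 70.4 CPM. Among genes around the path in KO, Hprt was highest in replicate 3 at 98.3 CPM (others 47.1 to 64.2 CPM) and Nt5e was lowest in replicate 5 at 1.24 CPM (others 28.9 to 132 CPM). In WT, Abcc4 was lowest in replicate 3 at 10.7 CPM (others 57.9 to 89.2 CPM), Mocs1 lowest in replicate 4 at 50.5 CPM (others 112 to 147 CPM) and Entpd8 lowest in replicate 4 at 36.4 CPM (others 56.3 to 65.1 CPM). The macrophage and Kupffer cell marker sum was highest in KO replicate 6 at 1830.2 CPM (others 151 to 344 CPM), and the endothelial sum was highest in WT replicate 2 at 502 CPM (others 333 to 363 CPM).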

How the results depend on the processing

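Over 25 alternatives the log2 fold change of KO over WT stayed negative for Uox (−1.44 to −1.02), Urad (−1.87 to −1.10) and Urah (−1.09 to −0.54) and positive for Gda (0.20 to 0.59) and Ada (0.08 to 0.76), while Xdh was negative in 17 (−0.56 to 0.34) and Pnp in 24 (−1.02 to 0.35). The sign of Uox was fixed in advance, since every KO library lay below every WT library. The median of the 7 genes was −0.18 in all libraries, 0.34 in the shallower and −0.81 in the deeper ones, and lay between −0.31 and −0.07 with each library left out. Calls over all genes between KO and WT were 0 with edgeR, 489 with DESeq2, 2138 with voom and sample weights, 5 without weights, 1 with upper quartile scaling, 1 without a filter, 1 with at least 1 CPM in 5 libraries, 2 with the title number range and 3 with depth class as covariate, 2 within the deeper libraries, and 0 to 65 with each library left out (65 without KO replicate 6). Calls between depth classes were 102 with edgeR, 743 with DESeq2, 47 without a filter and 31 to 79 with each library left out. Interaction calls were 0 with edgeR, 80 with DESeq2, 1 with voom, 1 without a filter and 0 to 1 with each library left out. Marker differences with each library left out were −2.65 to −1.68 for periportal hepatocytes, −1.49 to −0.89 for macrophages and Kupffer cells and −1.10 to −0.76 for endothelial cells. For pericentral hepatocytes they were 2.91 within the shallower and −2.31 within the deeper libraries. In the same order they were −1.14 and 0.10 for stellate cells and fibroblasts and −2.34 and 2.69 for cholangiocytes. The cause was not tested. Ada, with 10 to 147 counts, and Allc are limited by depth. No paired analysis was possible because the replicate numbers are accession order and the labels give no pairing.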
